A study of Homo sapiens with 4 samples.

Results

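The cytosolic ribosomal protein genes encode the protein components of the ribosomes that translate nuclear messages. They were taken as every gene whose symbol is RPL or RPS with a number and an optional A or X, together with RPLP0, RPLP1, RPLP2 and RPSA; pseudogenes, the L-suffixed paralogues and Y-linked copies were left out. This gave 77 genes of the 19653 with a row, 46 of the large and 31 of the small subunit, and no measured value entered the choice. RNA was sequenced from hTERT-RPE1, an established human line from the retinal pigment epithelium that was made immortal with telomerase. Both groups were untreated. The 2 libraries labelled sgControl came from cells with a lentiviral vector for Cas9 and no guide, with genotype WT in the labels. The 2 libraries labelled sg53BP1 came from cells given a lentiviral guide RNA against 53BP1, with genotype 53BP1 knockout in the labels. Neither the labels nor the design text say whether the edited cells were 1 clone or a pool, or whether separate cultures stood behind the libraries. The p-values therefore measure the spread of these samples only, and that spread may be technical.

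The cytosolic ribosome has a large subunit, which joins amino acids, and a small subunit, which reads the message. Each ribosomal protein is present in a ribosome in a fixed number of copies, and unassembled copies are degraded in the nucleus or, for RPL5 and RPL11, can bind MDM2 and so stabilise p53. Messages of these genes begin with a C followed by a run of pyrimidines, the 5′ terminal oligopyrimidine (TOP) tract, through which mTOR and LARP1 adjust their translation and stability together. In growing cells they are among the most abundant messages.

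Library totals lay between 16654411 and 18164086 counts. TP53BP1, which encodes 53BP1 and was the target of the guide, had 431 and 594 counts in libraries labelled sgControl and, in libraries labelled sg53BP1, 1743 and 1516. It was thus higher in the libraries labelled sg53BP1, by 1.56 on the log2 scale (SE 0.18, edgeR's quasi-likelihood test, Benjamini-Hochberg adjusted p = 0.00224), so that every direction given here goes by the labels as deposited. Counts do not show whether a transcript with a small edit makes protein. Whether the labels or count columns were exchanged was not tested, and an exchange would reverse every direction given here. Of 14 markers of retinal pigment epithelium, RPE65, TYR, TTR and CRX were without a row or had at most 3 counts in each library. The 11 markers with a row summed to between 46.9 and 60.0 CPM (counts scaled to a common library size with TMM factors), led by MITF. Keratins and other epithelial markers summed to 660 and 1025 CPM under the label sgControl and to 632 and 678 under sg53BP1, with CDH1 and EPCAM at or under 3 counts. Fibroblast markers summed to 380 and 336 CPM against 203 and 214, and immune and endothelial markers to at most 3.01 CPM in a library. The part of these cell-state markers in the results below was not tested.

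The TOP tract can be seen at the transcription starts that RefSeq lists on GRCh38.p14. A table of starts held 62 of the 77 genes, and 46 of these, 74.2%, had at a listed start a C that opens a run of at least 5 letters made only of C and T, read on the gene's own strand. The same was true of 7.46% of 10544 tested genes and of 8.57% of 70 mitochondrial ribosomal protein genes. The windows printed here hold the 10 bases before a listed start and the first 20 from it, 5′ to 3′, with the run that meets the rule in capitals. They are those of the gene that passed the test (RPS26), of high members per length (RPL41, RPLP0), of the laminin-binding RPSA, of the phosphoprotein RPS6, of the members with the lowest fold changes (RPL28, RPS19), and of RPS28, which differed widely between libraries of 1 group. For RPS19, which has 2 listed starts, the one with the longer run is shown.
RPS26: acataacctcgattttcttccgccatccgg
RPL41: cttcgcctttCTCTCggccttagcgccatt
RPLP0: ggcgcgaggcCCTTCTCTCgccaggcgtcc
RPSA: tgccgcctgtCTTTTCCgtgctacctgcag
RPS6: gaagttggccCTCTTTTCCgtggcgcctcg
RPS19: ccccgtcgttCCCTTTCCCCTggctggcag
RPL28: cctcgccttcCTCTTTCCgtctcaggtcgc
RPS28: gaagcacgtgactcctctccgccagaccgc

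In GRCh38.p14 these windows lie at chr12:56041908-56041937 (RPS26, plus strand), chr12:56116623-56116652 (RPL41, plus), chr12:120201092-120201121 (RPLP0, minus), chr3:39406710-39406739 (RPSA, plus), chr9:19380217-19380246 (RPS6, minus), chr19:41860245-41860274 (RPS19, plus), chr19:55385922-55385951 (RPL28, plus) and chr19:8321486-8321515 (RPS28, plus). The run is 11 letters long in RPS19, 9 in RPLP0 and RPS6 and 5 in RPL41. In RPS26 the listed start is a G and the longest pyrimidine run in the first 20 bases, of 9 letters, begins at base 3. In RPS28 the listed start is an A and a run of 9 letters begins at base 2. A missing run at a listed start says only that the letters are not at that base. The median log2 fold change was 0.19 for the 46 genes with a run and 0.17 for the 16 without.

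All 77 genes were detected and tested, and together they took 4.37% and 3.94% of all counts with the label sgControl and 4.61% and 5.09% with the label sg53BP1. The exact 95% binomial intervals, which cover counting error only, reached about 0.01 percentage points to either side. The groups did not overlap: the means were 4.15% ± 0.307 (SD, n = 2) and 4.85% ± 0.338 (SD, n = 2). In bulk RNA, a change in the make-up of the culture and a change of RNA per cell cannot be told apart. Counts on 331 rows of ribosomal protein pseudogenes, which can take reads of the parent messages, had the same order over the libraries, with 2290 and 1865 CPM against 2341 and 2563. The share of counts on mitochondrially encoded genes was 2.73% and 1.74% against 2.93% and 2.87%, so the library labelled sgControl 2 was lowest in both, and its part in the ribosomal protein share was not tested.

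All 77 genes had a higher fitted level in the libraries labelled sg53BP1, by a median log2 fold change of 0.20 (1.14-fold, range 0.02 to 0.86), whereas 47.4% of the 13140 tested genes were higher and their median was −0.02. Among 389 other genes of like level, between the quartiles of the members' mean log2 CPM, 60.4% were higher and the median was 0.07. The median standard error of a single gene was 0.13. Only RPS26 passed the threshold of 0.05 in edgeR's quasi-likelihood test, 1 of 77, against 5.08% of all tested genes in either direction and 2.07% in the higher one. An unadjusted p under 0.05 was reached by 9 of the 77, 6 of the large and 3 of the small subunit. The share was 19.3% of all tested genes, and 103 of the 389 of like level reached it. Both libraries labelled sg53BP1 lay above both labelled sgControl for 51 genes, against 24.8% of all tested genes and 149 of the 389. No member had both below, against 25.9% of all tested genes and 83 of the 389, and 26 members overlapped.

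**Figure D1:**
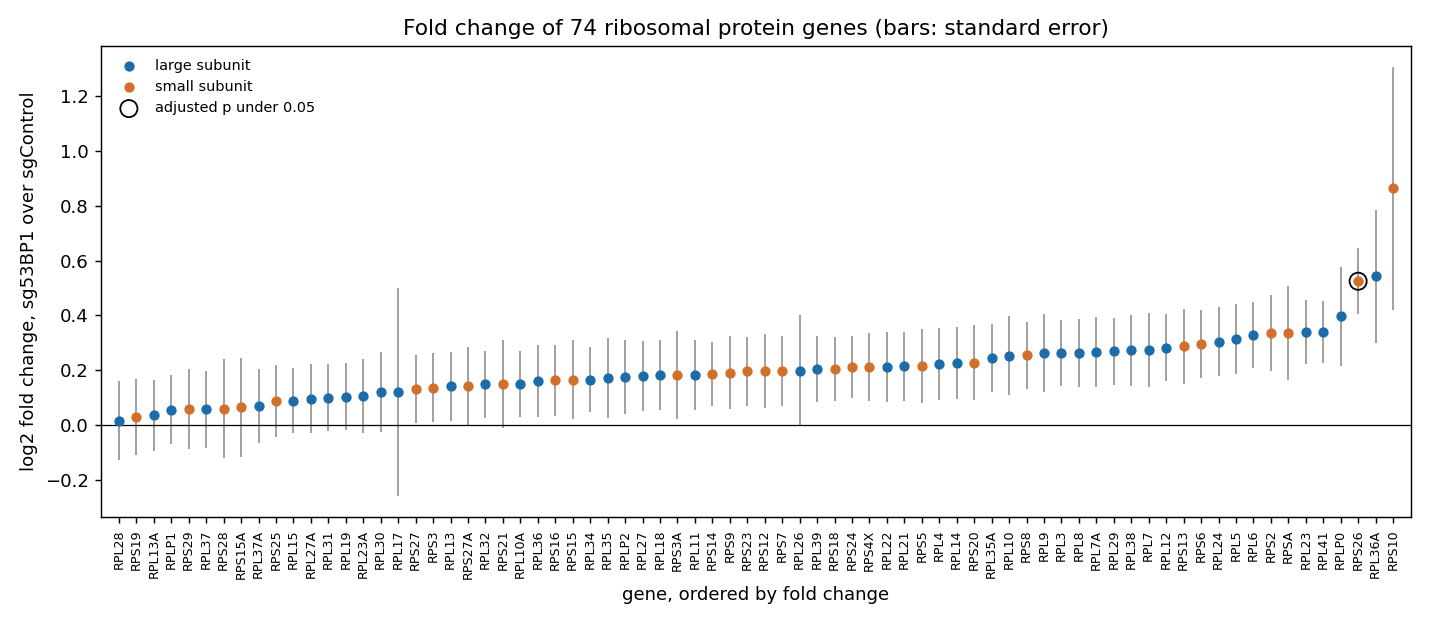
Log2 fold change of 74 of the 77 genes, libraries labelled sg53BP1 over those labelled sgControl (y axis), with genes ordered along the x axis. Points are the fitted values, bars their standard errors, colours the subunits, and the ring marks the gene past the threshold. Every point lies above 0, from 0.02 for RPL28 to 0.86 for RPS10, and RPS26 alone is ringed.

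RPS26, a protein of the small subunit at the channel through which the message leaves, had 318 and 307 CPM with the label sgControl and 432 and 468 CPM with the label sg53BP1. The groups did not overlap and the gap was wider than the spread within either. The log2 fold change was 0.52 (SE 0.12, 1.44-fold, edgeR adjusted p = 0.0438). As a share of all counts on the 77 genes it was 0.73% and 0.78% against 0.93% and 0.93%. Without either library labelled sg53BP1 it was not called (edgeR adjusted p = 0.477 without library 1 and 0.662 without library 2), in fits that called 5 genes of all tested. It passed without either library labelled sgControl, in fits where far more of all tested genes passed than in the main fit. It also passed in the DESeq2 Wald test (adjusted p = 0.00137), but not with the replicate number as a block. The log2 fold change lay between 0.47 and 0.58 in the 4 fits that left out a library.

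The highest fitted changes beside it belonged to genes with few reads and to RPLP0. RPS10 had 16 and 19 counts against 36 and 33, a log2 fold change of 0.86 (SE 0.44, edgeR adjusted p = 0.334). RPL36A had 106 and 152 counts against 210 and 196, with 0.54 (SE 0.24, edgeR adjusted p = 0.268). In both the groups did not overlap, yet neither passed the test. RPLP0, the scaffold of the ribosomal stalk and a common reference gene in quantitative PCR, had 2732 and 1862 CPM against 2954 and 3092 CPM. Here the library labelled sgControl 2 stood apart and the other sgControl library lay close to both labelled sg53BP1, at a log2 fold change of 0.40 (SE 0.18, edgeR adjusted p = 0.299).

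At the other end, the 5 lowest log2 fold changes lay between 0.02 and 0.06, and 4 of these genes are described here. RPL28 had 398 and 450 CPM against 382 and 475, RPS19, mutated in Diamond-Blackfan anaemia, 580 and 691 against 604 and 695, and RPL13A 1156 and 982 against 1046 and 1146. RPLP1, the other acidic stalk protein beside RPLP2, had 906 and 823 CPM against 837 and 961. The groups overlapped in all 4, with standard errors between 0.13 and 0.15. Their direction rests on single libraries: without 1 library, RPL28 ranged from −0.15 to 0.17, RPS19 from −0.07 to 0.17, RPL13A from −0.07 to 0.19 and RPLP1 from −0.04 to 0.16.

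The large and the small subunit had nearly the same summary values. The median log2 fold change was 0.19 for the 46 genes of the large subunit and 0.20 for the 31 of the small. The large subunit took 2.86% and 2.57% of counts with the label sgControl against 3.02% and 3.32% with the label sg53BP1, and the small subunit 1.51% and 1.36% against 1.59% and 1.77%. The ratio of large to small subunit counts was 1.90 and 1.89 against 1.90 and 1.88, or 1.89 ± 0.00631 and 1.89 ± 0.0174 (SD, n = 2 each), and the groups overlapped. The median log2 CPM of the large subunit minus that of the small was −0.02 and 0.14 against −0.01 and 0.10, which overlapped as well. These 4 values separated library 1 from library 2 in each group rather than the groups.

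**Figure D2:**
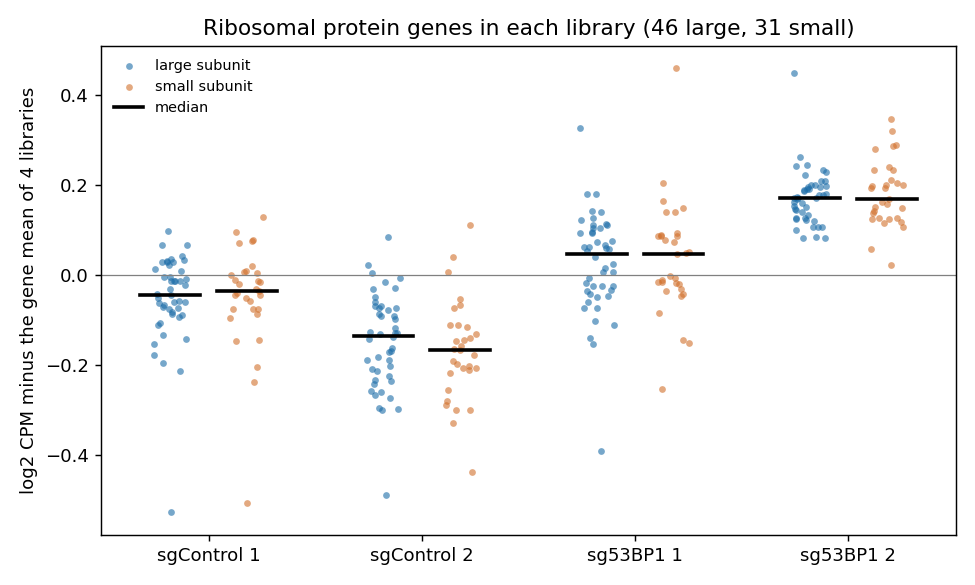
Log2 CPM of each gene minus its mean over the 4 libraries (y axis) in each library (x axis). Points are genes, in blue for the 46 of the large and orange for the 31 of the small subunit, and black bars are medians. Both subunits sit lowest in sgControl 2 and highest in sg53BP1 2, which is the highest library for 68 of the 77 genes.

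The spread within each pair was itself shared by most of the genes. The library labelled sg53BP1 2 was the highest of the 4 for 68 of the 77 genes, while it was the highest for 21.3% of all tested genes. The library labelled sgControl 2 was the lowest for 55, while it was the lowest for 28.3% of all tested genes. Between the libraries labelled sgControl, library 2 was below library 1 for 59 of the 77, with a median log2 difference of −0.11 and a median absolute difference of 0.152. Between the libraries labelled sg53BP1, library 2 was above library 1 for 70 of the 77, with a median of 0.13. Over all tested genes the medians were 0.00 and −0.01. The median absolute difference within the sgControl pair was 0.231 over all tested genes and 0.168 over the 389 others of like level, both larger than that of the 77 genes. Within the sg53BP1 pair it was 0.132 over the 77 genes, below the 0.148 of all tested genes but above the 0.087 of the 389 others. The median difference between the groups, 0.20, was thus larger than the offset within either pair but of the same order. Counting error alone gave an SD of about 0.023 for such a difference.

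The genes that led the difference between the libraries labelled sgControl were not those that led the other pair. RPLP0 had a log2 difference of −0.55, sgControl 2 minus sgControl 1, RPSA one of −0.51 and RPS3A one of −0.46. RPL36A differed by 0.49 in the other direction, on 106 and 152 counts. RPSA, the laminin receptor precursor that sits on the small subunit, had 1356 and 950 CPM against 1441 and 1469. In the libraries labelled sg53BP1, RPL17 differed by 0.84, on 48 and 87 counts, and RPS28 by 0.54, with 140 and 203 CPM. RPS28, a small protein near the exit of the message channel, had 162 and 167 CPM in the libraries labelled sgControl, which lie between them. EEF1A1, an elongation factor whose message also carries a TOP tract, had its lowest level in sgControl 2, with 11367 and 8375 CPM against 11269 and 11099.

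**Figure D3:**
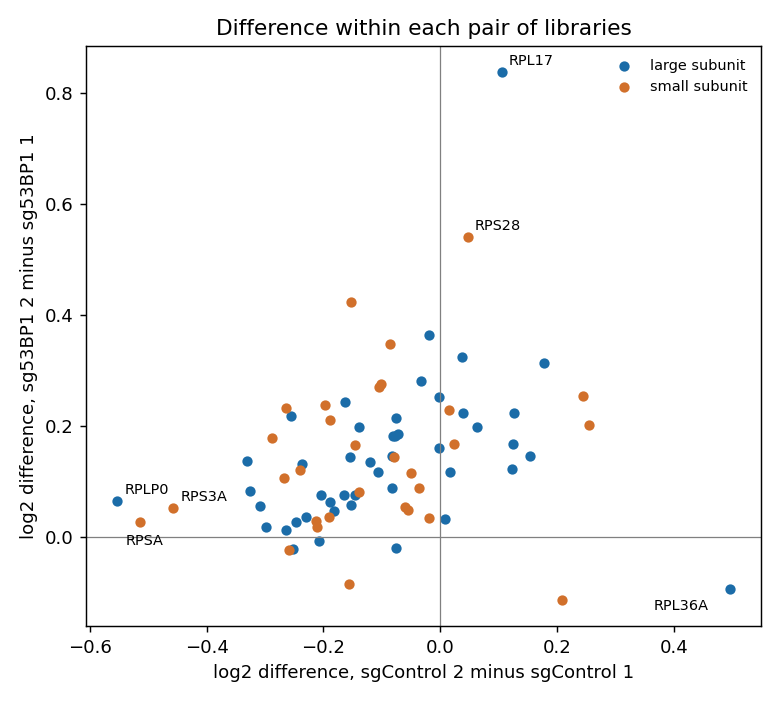
For each gene, the log2 difference of library 2 minus library 1 within the sgControl pair (x axis) and within the sg53BP1 pair (y axis), coloured by subunit. Most points lie left of 0 and above 0: library 2 was lower for 59 genes in the first pair and higher for 70 in the second, and RPLP0 and RPSA extend furthest to the left.

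These differences varied with base composition. With the genes sorted by the GC content of the coding sequence and split into 26 of low, 26 of middle and 25 of high GC, the median difference within the sg53BP1 pair was 0.06, 0.12 and 0.20, and that within the sgControl pair −0.20, −0.10 and −0.04. Spearman's rho of the sg53BP1 pair difference with coding GC, given as a description across genes that share their libraries, was 0.46 over the 77 genes and 0.62 over the 389 others of like level. For the sgControl pair difference it was 0.38 and 0.27. With coding length, the sgControl pair difference had a rho of −0.49 over the 77 genes and of 0.08 over the 389 others. The sg53BP1 pair difference had −0.34 and −0.37 with coding length. After GC and length were taken up as offsets, an alternative chosen after seeing the data, the pair medians were −0.09 and 0.07, all 77 genes stayed higher in the libraries labelled sg53BP1 and their median log2 fold change was 0.19.

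How many genes passed the test turned on single libraries. Without sgControl 1, 30 of the 77 were higher, 17 of the large and 13 of the small subunit, against 11.8% of all tested genes called higher in that fit. Without sgControl 2, RPL23, RPL29, RPL36A, RPL38, RPL41 and RPS26 were higher, 6 of 77 against 8.77%. Without either library labelled sg53BP1, 0 of the 77 passed, as did only 5 of all tested genes. Each of these fits takes the lone library to vary as much as the libraries of the other group. The numbers of genes with a positive change without sgControl 1, sgControl 2, sg53BP1 1 and sg53BP1 2 were 75, 72, 77 and 65, and the medians 0.28, 0.15, 0.27 and 0.15. In the authors' deposited table, with its sign turned to libraries labelled sg53BP1 over sgControl, 77 of the 77 were positive, with a median of 0.21, and 1 had an adjusted p under 0.05, against 6.17% of genes. That gene was RPS26, with an adjusted p of 0.00368 in the authors' deposited table. The authors' values rest on the same libraries and their sign was set by the same counts, so the positive signs are no separate support.

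Among genes with roles outside the ribosome, RPL5 had 743 and 634 CPM against 844 and 866 (log2 fold change 0.31, SE 0.13, edgeR adjusted p = 0.220), and the groups did not overlap. RPL11, its partner in binding MDM2 with 5S RNA, had 483 and 458 CPM against 494 and 574, at a log2 fold change of 0.18. RPL26, of the large subunit, had 11.8 and 9.76 CPM against 12.3 and 12.4, at 0.20. None of these passed the test.

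RPS6, the substrate of the S6 kinases, had 938 and 810 CPM against 1065 and 1079 CPM, and a log2 fold change of 0.29 (SE 0.12, edgeR adjusted p = 0.237). RPL41, the shortest ribosomal protein, had 1191 and 1205 CPM against 1454 and 1578 CPM, at 0.34 (SE 0.11, edgeR adjusted p = 0.146). In both the groups did not overlap. RPS2 followed the same order at 1462 and 1217 CPM against 1553 and 1825, with 0.33. RPS4X, the X-linked form, had 681 and 597 CPM against 730 and 749, at 0.21, and RPL7 802 and 648 against 859 and 894, at 0.27. RPL39, at the exit tunnel of the large subunit, had 232 and 220 CPM against 252 and 268, at 0.20. RPS27, of the small subunit, had 264 and 268 CPM against 274 and 308, at 0.13, and RPL22, an RNA-binding protein of the large subunit, 87.4 and 76.7 against 92.9 and 97.2, at 0.21. For these last 6 genes the groups also did not overlap and none passed the test. Groups were apart in this direction for 51 of the 77 members and for 24.8% of all tested genes. RPLP2, which forms stalk dimers with RPLP1, had 395 and 352 CPM against 386 and 458, which overlapped.

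Per length, levels spanned more than 3 orders of magnitude. On the scale of CPM per kilobase of exon union, averaged over the groups, RPL41 was highest at 1247, followed by RPS12 at 725, RPLP0 at 665, RPS2 at 627 and RPL13A at 457. RPL41 was first under the exon union, the longest transcript and the coding length, while RPS12 moved from rank 2 to 5 and 22. At the low end were RPS10 at 0.628, RPL17 at 1.46, RPL36A at 2.39, RPS15A at 2.40 and RPL26 at 4.59. These 5 were among the 6 lowest under all 3 lengths.

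Each of the 5 shares exon bases with another gene on the same strand in GENCODE release 29, as do 13 of the 77 in all. The 13 also hold RPS2, with 14.5% of its exon bases shared, and RPL13A, with 3.5%, which were high per length. RPL26 shares 14.3% of its exon bases and RPS15A 3.3%. RPS10 shares 39.4% of its exon bases with the readthrough gene RPS10-NUDT3, RPL17 27.4% with RPL17-C18orf32 (antisense exons included) and RPL36A 8.4% with RPL36A-HNRNPH2. Rows of these readthrough genes were not analysed here. Reads on shared bases can be left out or divided by a counting tool, and the setting is not stated in the sources, so the levels of these 5 are uncertain.

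**Figure D4:**
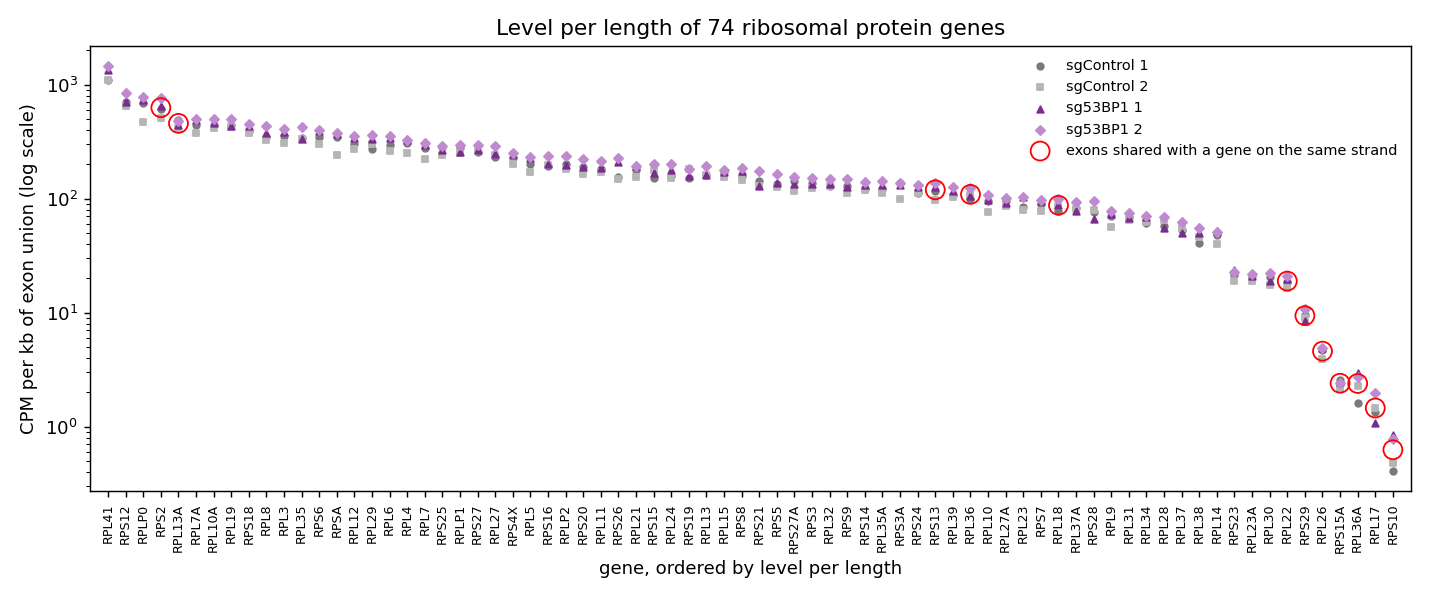
Level per length in CPM per kilobase of exon union (y axis, log scale) of 74 of the 77 genes (x axis, ordered by mean level), with 1 symbol for each library. Red rings mark genes that share exon bases with a gene on the same strand. The 5 lowest genes shown, from RPL26 at 4.59 to RPS10 at 0.628, all carry a ring.

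For 4 genes the rows of their own pseudogenes held more counts than the gene itself in every library. RPL17 had 55, 60, 48 and 87 counts in the libraries labelled sgControl 1 and 2 and sg53BP1 1 and 2, and its 12 pseudogene rows 1664, 1307, 1867 and 1949. RPL36A had 106, 152, 210 and 196 counts against 915, 910, 1096 and 1250 on 4 pseudogene rows. RPL26 and RPS10 were the other two, with 195 and 16 counts against 545 and 93 on pseudogene rows in sgControl 1. RPS2 stood out for the amount rather than the ratio, with 24265, 20450, 28069 and 32850 counts of its own and 14420, 11680, 15649 and 18075 on 17 pseudogene rows. With each gene's pseudogene rows added to it, an alternative chosen after seeing the data, the log2 fold change was 0.23 in place of 0.86 for RPS10, 0.29 in place of 0.54 for RPL36A and 0.24 in place of 0.12 for RPL17. The median over the 77 genes stayed at 0.20 and RPS26 remained the gene that passed.

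The 6 L-suffixed paralogues with a row, which encode near copies of ribosomal proteins, had a median log2 fold change of −0.04, and 0 of 6 passed the test. RPL22L1 was at 0.19, RPL7L1 at 0.04, RPL36AL at 0.01, RPL26L1 at −0.09, RPS27L at −0.11 and RPL39L at −0.14. RPL39L had 31.8 and 16.2 CPM against 20.6 and 23.1, so that the libraries labelled sgControl lay to either side of the others. RPS27L, a p53 target, had 141 and 181 CPM against 144 and 155. The groups overlapped for all 6. FAU and RACK1, ribosomal components under other names, were at 0.12 and 0.18, and neither passed.

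Genes that make or use ribosomes were mostly positive as well. Of 64 ribosome assembly factors, 56 were positive with a median log2 fold change of 0.21, and 1 was higher and 0 lower in edgeR's test, where 2.07% of all tested genes were called higher. That gene was FBL, the methyltransferase of box C/D small nucleolar ribonucleoproteins, with 123 and 114 CPM against 165 and 179 (log2 fold change 0.54, SE 0.12, edgeR adjusted p = 0.0445). Of 14 hosts of small nucleolar RNAs, 11 were positive with a median of 0.19, and SNHG1 was higher, at 94.0 and 88.8 CPM against 139 and 127 (log2 fold change 0.54, SE 0.12, edgeR adjusted p = 0.0407). As with RPS26, neither call held without either library labelled sg53BP1. All 15 tested genes of a list made up for TOP messages, translation factors and others, were positive (median 0.19). Of 15 RNA polymerase I genes 14 were positive (median 0.14), and 0 passed in either list. The table of starts held 10 genes of the TOP list, and 9 of these had a run that meets the rule. Over all tested genes, 5.08% were called in either direction.

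The mitochondrial ribosomal proteins, which are nuclear genes for another ribosome, had a median log2 fold change of 0.12, with 58 of 79 positive and 0 past the threshold. Their summed level was 3720 and 3560 CPM against 3863 and 4055, in the same order of libraries as the cytosolic genes. Genes of MYC and mTOR control had a median of 0.04 with 12 of 23 positive, and those of the ribosomal stress and MDM2 list 0.15 with 6 of 10. In both lists 0 genes passed, where 5.08% of all tested genes did. Whether any of these lists differed from the cytosolic genes was not tested.

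**Figure D5:**
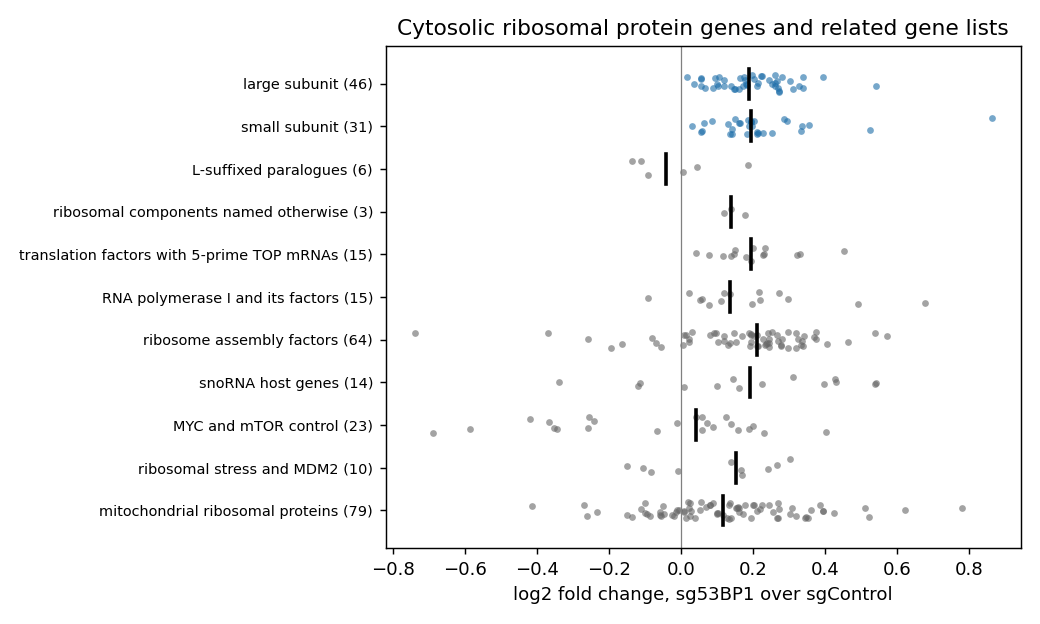
Log2 fold change, libraries labelled sg53BP1 over sgControl (x axis), of the genes of each list (rows, with the number tested). Points are genes, black bars medians. All 77 points of the large and small subunits (blue) are above 0 with medians of 0.19 and 0.20, while the L-suffixed paralogues have a median of −0.04 and the MYC and mTOR list of 0.04.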

How the data were processed

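Per the labels' protocols, total RNA was sequenced as paired-end reads. The submitters' processing notes name build hg19 and the tools HTSeq 0.6.0, HISAT2 2.1.0 and Bowtie2 2.2.3. What each did, which annotation was counted and whether strand was used is not given in the sources here. Without strand, reads of a gene and an antisense partner cannot be told apart. The authors deposited raw read counts for each gene and library. The same deposited table holds the authors' mean signal, log2 fold change and its standard error, p-values and, as a score, a test statistic. By the labels of the count columns, its fold change ran as control over knockout for 97.1% of 11943 genes with at least 100 counts. Its sign was therefore turned to follow those labels. A fold change of knockout over control beside exchanged count columns would look the same, and this was not tested. The table had 20050 rows for 19653 identifiers, and 397 repeats were removed.

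Groups were compared with edgeR 4.0.16 in R 4.3.3 (filterByExpr, TMM, robust quasi-likelihood, group as the only term), with Benjamini-Hochberg adjustment over 13140 tested genes and a threshold of 0.05. Levels are CPM with TMM factors, and log2 CPM used a prior count of 2. The test was checked on simulated data. GENCODE release 29, on another build than the counts, gave gene types, lengths, GC content and overlaps but no coordinates. Start sequences are from RefSeq on GRCh38.p14. Shares have exact Clopper-Pearson 95% intervals; intervals and the floor of 3 counts cover counting error only. The text names the members past the threshold; the 5 highest and 5 lowest fold changes; the 5 largest differences within a pair; the 3 highest and 3 lowest per length in each subunit; 14 members of known role; every measured L-suffixed paralogue; and called genes of 9 gene lists. Of the members this rule takes, 3 are not reported here by name. Members, lists and the rule were chosen with earlier results of these data known. RPS3A, RPL23, RPL29, RPL38, EEF1A1 and genes of other lists that did not pass were named after their values were seen. Alternatives were DESeq2 1.42.0 size factors and its Wald test, library totals, TMM without ribosomal protein genes, other low-count filters, limma-voom (limma 3.58.1), the replicate number as a block, each library left out, and, added later, GC and length offsets and added pseudogene rows.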

Additional observations from a re-analysis of the deposited data

How the results depend on the processing

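Across DESeq2 size factors, library totals, TMM without ribosomal protein genes, limma-voom, the DESeq2 Wald test, GC and length offsets and added pseudogene rows, all 77 genes stayed positive and RPS26 alone passed. With no low-count filter 2 passed (RPLP0 and RPS26) and 1548 of all genes. With a minimum mean of 5 CPM, RPS10 and RPL17 dropped out and 1 of 75 passed. With the replicate block 0 members and 297 of all genes passed; deviations of equal numbers correlated at r = 0.029 over all tested genes and 0.260 over the 77 genes, and nothing in the labels ties equal numbers together. Leaving out 1 library gave 0 to 30 members and 5 to 3358 of all genes called, and a small subunit median of 0.107 to 0.301. As a share of nuclear protein-coding counts the members took 4.537% and 4.045% under the label sgControl and 4.795% and 5.291% under sg53BP1. The large minus small subunit median lay between −0.035 and 0.050 and changed sign among settings. Fold changes that reversed when 1 library was left out ranged from −0.146 to 0.168 (RPL28), −0.070 to 0.172 (RPS19), −0.069 to 0.191 (RPL13A), −0.044 to 0.160 (RPLP1), −0.053 to 0.232 (RPS15A), −0.370 to 0.492 (RPL17), −0.232 to 0.308 (RPS28), −0.534 to 0.464 (RPL39L), −0.081 to 0.167 (RPL7L1), −0.247 to 0.087 (RPS27L) and −0.106 to 0.118 (RPL36AL). RPL36AL was −0.001 with a minimum of 5 CPM and −0.004 with GC and length offsets. The causes were not tested. Few reads limit RPS10, RPL17 and RPL36A, and 2 libraries a group limit all tests.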

Other observations

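CDKN1A, MDM2 and MYC, named after their values were seen, were higher in the library labelled sgControl 2 than in sgControl 1, whereas 59 of the 77 ribosomal protein genes were lower there. CDKN1A, a p53 target that arrests the cell cycle, had 424 and 763 CPM in the libraries labelled sgControl and 550 and 554 CPM in those labelled sg53BP1. MDM2, which ubiquitinates p53, had 97.5 and 168 CPM against 136 and 115. MYC, a transcription factor that drives ribosome production, had 90.4 and 148 CPM against 132 and 143. In all 3 genes the libraries labelled sgControl lay to either side of both labelled sg53BP1, and the relation of these values to the ribosomal protein genes was not tested.

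SESN2, an inhibitor of mTOR signalling, had 52.0 and 73.7 CPM against 38.9 and 39.1 (log2 fold change −0.69, SE 0.18, edgeR adjusted p = 0.0662), and MXI1, an antagonist of MYC, had 29.5 and 30.2 CPM against 21.8 and 17.9 (log2 fold change −0.59, SE 0.16, edgeR adjusted p = 0.0783). The groups did not overlap for either gene, as for 25.9% of all tested genes in this direction, and neither passed the threshold. Both genes were named after their values were seen. They come from the MYC and mTOR list, where 12 of 23 genes were positive, with RICTOR at −0.37, MAX at −0.34 and TSC2 at 0.14. Their relation to the ribosomal protein genes was not tested.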
